A study of Mus musculus with 12 samples.

Results

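The comparison described here sets matrix fibroblasts (M-MF) against myofibroblasts (M-MyoF) of the mouse lung, both taken from mice with lung metastasis. It covers 6 bulk RNA libraries, 3 of each subgroup, out of 12 in the series, and the 13300 of 20606 genes in the table that reached 1 FPKM (sequenced fragments scaled to transcript length and library depth) in at least 3 of the 12 libraries. The other 6 libraries hold the same subgroups from normal mice (N-MF and N-MyoF) and are used here as the reference for how far the subgroups already differed without metastasis. The series concerns breast cancer that spreads to the lung, and the labels call every sample lung fibroblasts, with no transgene, drug or other treatment named. Mouse strain, sex, age, tumour line, the surface markers used for purification and the number of animals behind a library are not stated in the labels used here. No label says that the 3 libraries of a group came from separate mice, so the p-values below reflect library-to-library spread alone, and that spread may be technical.

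Matrix fibroblasts make the collagens, elastic fibre proteins and proteoglycans of the lung interstitium. They are usually divided into an alveolar type marked by Col13a1, Tcf21 and Npnt and an adventitial type around vessels and airways marked by Col14a1, Pi16 and Dcn. Lung myofibroblasts lie at the alveolar ducts and entrance rings, carry smooth muscle actin (Acta2) and the hedgehog binding protein Hhip, and share much of their contractile programme with smooth muscle cells and pericytes, the mural cells of small vessels.

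Libraries of one group were nearly alike, with a median coefficient of variation of 1.60% in M-MF and 1.83% in M-MyoF among genes at 100 FPKM or more. Summed FPKM was 571294 to 574574 in the M-MF libraries and 614237 to 618478 in the M-MyoF libraries, and 11932 to 11963 and 12655 to 12682 genes reached 1 FPKM. Read depth is unknown. The most abundant transcript was Gsn, encoding the actin-severing protein gelsolin, in the 3 M-MF libraries and Scgb1a1, the secretoglobin of airway club cells, in the 3 M-MyoF libraries.

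The subgroup labels were checked against their markers first. Pdgfra, the platelet-derived growth factor receptor of matrix fibroblasts, read 74.5, 73.9 and 75.6 FPKM in M-MF and 10, 9.78 and 9.62 FPKM in M-MyoF. The 2 groups did not overlap, and the difference in log2(FPKM + 1), M-MF minus M-MyoF, was 2.81 ± 0.0265 (SE; limma adjusted p = 7.32e-17). Acta2 read 78.3, 79.9 and 80.9 FPKM in M-MF and 953, 958 and 935 FPKM in M-MyoF. All 3 M-MyoF libraries lay far above the M-MF libraries (-3.56 ± 0.0261). Hhip, which sequesters hedgehog ligands, read 44.9, 42.8 and 42 FPKM in M-MF and 802, 785 and 774 FPKM in M-MyoF, again with every M-MyoF library above every M-MF library (-4.16 ± 0.0248). Tagln, the actin-binding protein transgelin (-3.92 ± 0.0307), Myh11, smooth muscle myosin (-4.37 ± 0.0413), Lgr6, an R-spondin receptor (-3.80 ± 0.035), and Aspn, the proteoglycan asporin (-2.27 ± 0.0176), were higher in M-MyoF too. Among the matrix markers Col14a1 (0.92 ± 0.0187) and the regulator Tcf21 (1.25 ± 0.0389) were higher in M-MF. The alveolar markers were divided. Npnt, nephronectin (-0.97 ± 0.0275), and Itga8, its integrin receptor (-1.50 ± 0.0449), were higher in M-MyoF. Col13a1 was low in both groups, at 3.08 ± 0.398 FPKM in M-MF and 2.63 ± 0.0781 FPKM in M-MyoF (mean ± SD, n = 3), a difference of 0.16 with a 95% interval of -3.8e-05 to 0.33 that did not pass the test (limma adjusted p = 0.0584) but passed, higher in M-MF, after each of the 3 rescalings described below (0.25 to 0.53). From here on, values after ± are the SE for log2 differences and the SD of 3 libraries for FPKM means.

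Transcripts of other cell types were present in the 6 libraries and mostly more abundant in M-MyoF. The summed FPKM of 23 neutrophil markers was 1335 to 1362 in the M-MF libraries and 16365 to 16637 in the M-MyoF libraries, against 307 to 317 in N-MF and 1171 to 1218 in N-MyoF. In M-MF 7 of these 23 markers averaged under 1 FPKM, and in M-MyoF 1 did. Of 22 tested markers 21 were higher in M-MyoF at 2-fold, where 8.82% of all genes were. The remaining 1, Chil3, a gene of macrophages and neutrophils, was higher in M-MF (465 against 171 FPKM). It gave a large part of the M-MF sum and averaged 8.01 FPKM in N-MF. S100a8, a subunit of calprotectin, read 125, 118 and 119 FPKM in M-MF and 6558, 6114 and 6303 FPKM in M-MyoF. Airway epithelial markers (14 genes) summed to 1943 to 1971 FPKM in M-MF and 12717 to 13317 in M-MyoF, and alveolar epithelial markers (15 genes) to 1781 to 1793 and 4143 to 4308. Scgb1a1 itself averaged 1606 against 12279 FPKM (M-MF against M-MyoF), and in normal lung 1019.9 against 14807 FPKM. Erythroid and platelet markers (11 genes) summed to 16.8 to 26.0 FPKM in M-MF and 3402 to 3477 in M-MyoF, nearly all of it from globin genes. Endothelial markers summed to similar totals, 1275 to 1284 and 1218 to 1226, but the M-MF total holds Car4, a carbonic anhydrase of lung capillaries (702 against 111 FPKM), and 16 of 18 tested endothelial genes passed the limma test higher in M-MyoF, where 66.0% of all tested genes did. Carcinoma epithelial markers (15 genes) summed to 389 to 396 in M-MF and 846 to 874 in M-MyoF, with the keratin Krt18 at 122 against 293 FPKM. In normal lung they summed to 49.7 to 53.1 in N-MF and 213 to 215 in N-MyoF, so these genes were also present without metastasis. The sums ran the other way for macrophage and monocyte markers (19 genes), at 1727 to 1763 in M-MF and 1113 to 1120 in M-MyoF, where the lipid carrier Apoe, which fibroblasts also make, gave most of the M-MF total (1532 against 671 FPKM), and for 14 mesothelial markers, at 1652 to 1700 and 1160 to 1187. By count, 12 of 15 tested macrophage and monocyte genes passed higher in M-MyoF, 7 at 2-fold, and 3 in M-MF, with a median difference of -0.97. The part of these cells in the differences below was not tested. In bulk RNA, fewer cells of a type cannot be told apart from less RNA per cell.

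**Figure D1:**
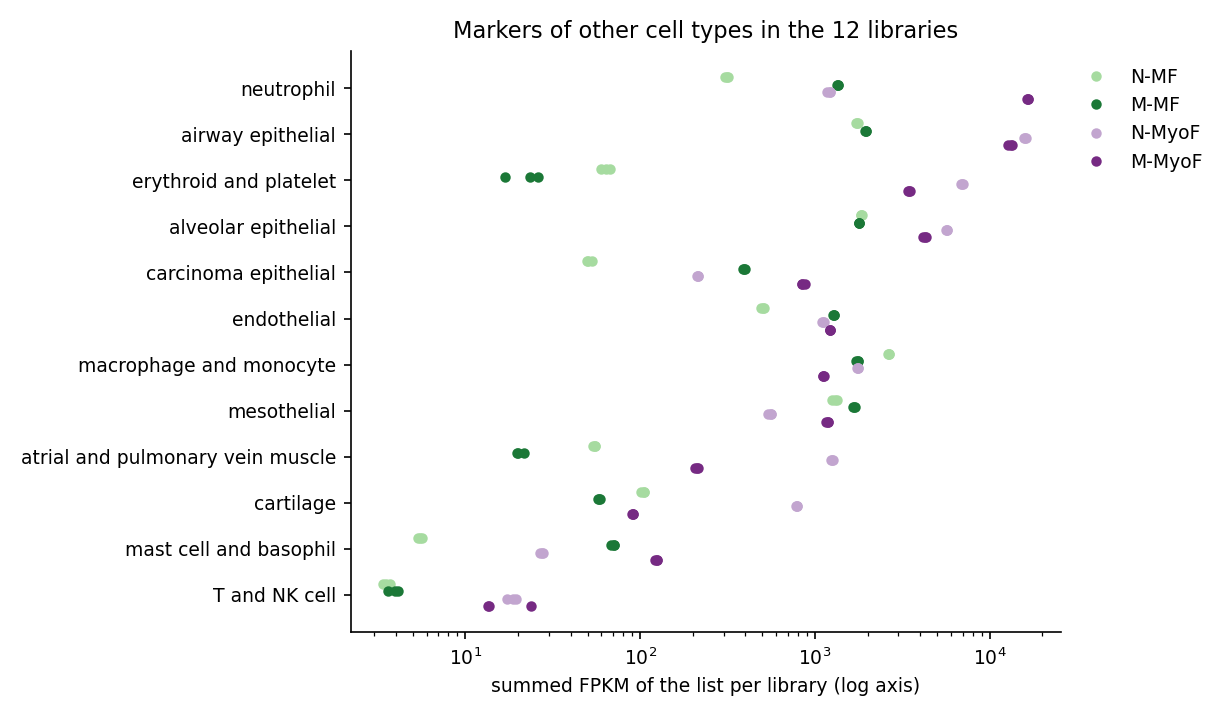
Summed FPKM of marker lists of other cell types (x axis, log scale), 1 point per library, 3 libraries per group, coloured by group. The 3 M-MyoF libraries sit between 16365 and 16637 FPKM for neutrophil markers and the 3 M-MF libraries between 1335 and 1362.

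A gene was called at a limma adjusted p under 0.05 and a difference of at least 2-fold on the log2(FPKM + 1) scale. Of the 13300 genes, 631 (4.74%) were called higher in M-MF and 1173 (8.82%) higher in M-MyoF, 13.6% in all. At 4-fold or more there were 212 and 311, and at 16-fold or more 11 and 50. With no minimum fold, 2536 genes (19.1%) passed higher in M-MF and 8784 (66.0%) higher in M-MyoF, 85.1% in all, and in 85.6% of genes the libraries of the 2 groups did not overlap. That split depends on scale: the median gene differed by -0.29 as deposited, -0.20 after rescaling to equal sums, -0.06 after median-ratio scaling and -0.02 after quantile normalization. The 2-fold calls were then 703 and 1006, 815 and 787, or 890 and 698. Gene lists below are therefore read against the median of -0.29. At the other end, 6451 genes (48.5%) had a 95% interval wholly within 0.5 of no difference. Among genes at 100 FPKM or more in both groups the smallest differences were those of Atp5j and Atp5e, subunits of the mitochondrial ATP synthase, and Fkbp1a, the FK506 binding protein. Atp5j read 248, 241 and 256 FPKM in M-MF and 252, 247 and 247 FPKM in M-MyoF, with an interval of -0.069 to 0.068, and Fkbp1a had an interval of -0.044 to 0.037.

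Mrgprg, an orphan receptor of the Mas-related family, differed most in favour of M-MF. It read 547, 548 and 536 FPKM in M-MF and 6.52, 5.93 and 6.13 FPKM in M-MyoF, 75.8-fold apart on the log2(FPKM + 1) scale (6.24 ± 0.0315, adjusted p = 6.47e-19). Every M-MF library lay far above every M-MyoF library. Apod, the lipid carrier apolipoprotein D, read 329, 331 and 321 FPKM in M-MF and 5.33, 5.6 and 5.38 FPKM in M-MyoF (5.67 ± 0.0247). Sfrp4, a secreted Wnt antagonist, read 93.3, 94.3 and 91.5 FPKM in M-MF and 2.61, 2.39 and 2.72 FPKM in M-MyoF (4.72 ± 0.0513). The adventitial genes Pi16, a peptidase inhibitor of universal fibroblasts, Dpep1, a membrane dipeptidase, Entpd2, an ATP-splitting ectoenzyme, and Serpinf1, which encodes pigment epithelium-derived factor, were also among the 12 largest. Pi16 (chromosome 17, 29318796 to 29328903 in the RefSeq annotation of GRCm38) read 602, 599.8 and 577 FPKM in M-MF and 25.8, 24.7 and 23.7 FPKM in M-MyoF (4.53 ± 0.0321). The remaining ones were Htra3, a secreted serine protease (754 against 38.7 FPKM), Ifi205, an interferon-inducible DNA sensor family member (264 against 9.89 FPKM), the B cell attractant Cxcl13, the dual oxidase maturation factor Duoxa1 (79.4 against 3.53 FPKM), and Ahsg, the plasma glycoprotein fetuin A (46.6 against 1.97 FPKM). Ifi205 has close copies, so its share of their reads is uncertain.

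**Figure D2:**
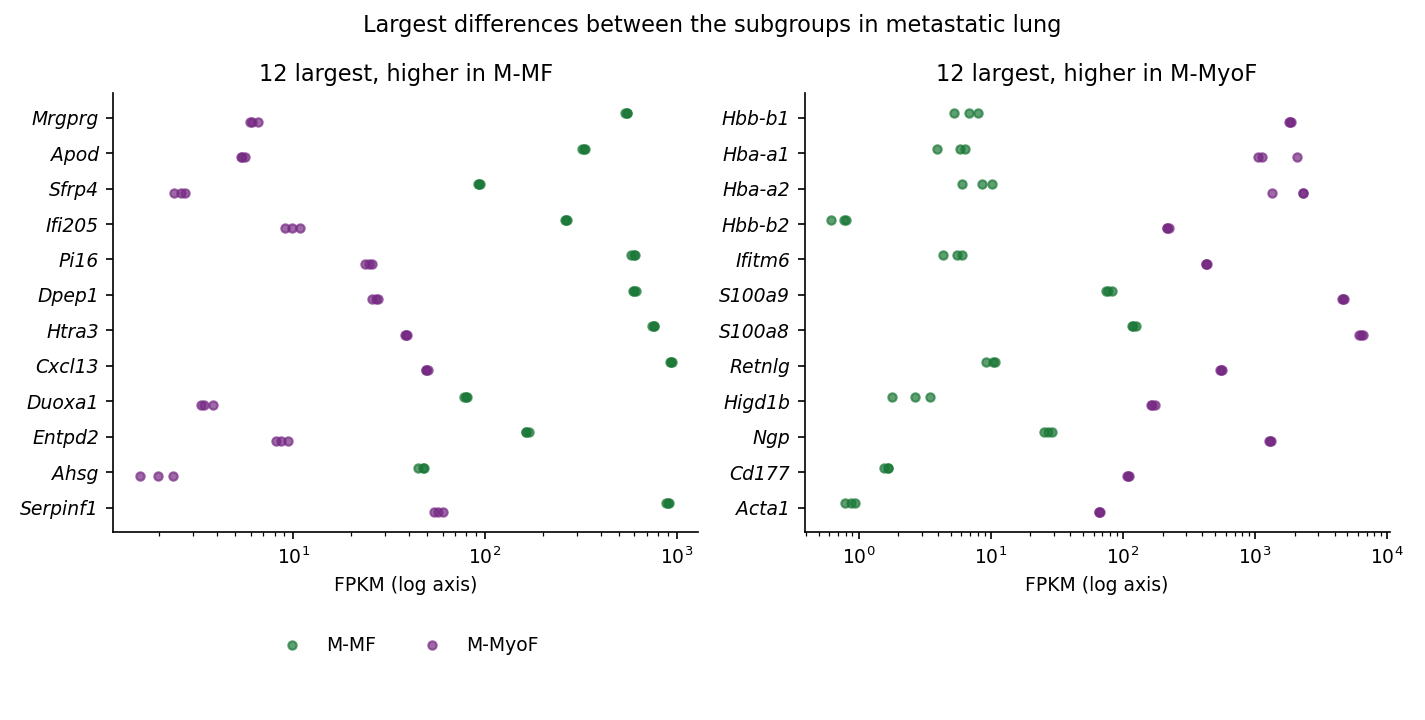
FPKM (x axis, log scale) of the 12 genes with the largest difference in each direction, 1 point per library, 3 M-MF libraries in green and 3 M-MyoF libraries in purple. Mrgprg sits near 544 FPKM in M-MF and 6.19 in M-MyoF, and S100a8 near 121 and 6325.

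On the M-MyoF side the 12 largest differences did not include Acta2 or Hhip. They were 4 globin genes, 6 neutrophil genes, the pericyte gene Higd1b and Acta1, skeletal muscle actin. Hbb-b1, a beta globin, read 8, 5.26 and 6.88 FPKM in M-MF and 1812, 1843 and 1867 FPKM in M-MyoF (-7.92 ± 0.11). Hba-a1 read 3.92, 5.84 and 6.36 FPKM in M-MF and 1063, 1128 and 2080.2 FPKM in M-MyoF, a wide spread between libraries of one group. Hba-a1 and Hba-a2 encode the same protein and share reads, so the split between them is uncertain, and the same holds for the beta globins. The neutrophil genes were Ifitm6 (-6.10 ± 0.136), the calprotectin genes S100a9 (-5.88 ± 0.0631) and S100a8 (-5.70 ± 0.0773), the resistin-like Retnlg (-5.64 ± 0.141), the granule protein Ngp (-5.54 ± 0.0744) and Cd177, a neutrophil surface protein (-5.38 ± 0.0378). Higd1b read 3.48, 2.67 and 1.78 FPKM in M-MF and 165, 175 and 167 FPKM in M-MyoF (-5.57 ± 0.134), and Acta1 read 0.79, 0.94 and 0.87 FPKM in M-MF and 65.5, 66.3 and 66.9 FPKM in M-MyoF (-5.17 ± 0.0376).

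The adventitial programme was higher in M-MF throughout. All 24 genes of the Col14a1-type matrix fibroblast list passed higher in M-MF, 22 of them at 2-fold or more, with a list median of 2.44 against -0.29 for all genes and a range of 0.82 to 4.53. Of all genes 19.1% passed higher in M-MF, 4.74% at 2-fold, and 66.0% in M-MyoF, 8.82% at 2-fold. Gene lists in this report were chosen with earlier results of these data known. The alveolar, Col13a1-type list was mixed, with 12 of 22 genes higher in M-MF, 10 of them at 2-fold, and 8 higher in M-MyoF, 4 of them at 2-fold (median 0.73). Vegfd, the lymphatic growth factor VEGF-D, read 74.9, 71.8 and 72.8 FPKM in M-MF and 7.77, 8.75 and 9.13 FPKM in M-MyoF (2.96 ± 0.0527). Gpc3, a glypican that binds growth factors (294 against 42.9 FPKM, 2.75 ± 0.0158), Inmt, indolethylamine methyltransferase (842 against 165 FPKM, 2.35 ± 0.0165), and the chemokine Cxcl14 (78 against 14.1 FPKM, 2.39 ± 0.0394) were also higher in M-MF. Besides Itga8, the members higher in M-MyoF at 2-fold were Mamdc2 (-1.41 ± 0.0303), Bmp3, a bone morphogenetic protein (-1.24 ± 0.0417), and Fgfr4 (-1.05 ± 0.0667).

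Genes of the contractile and mural programmes were higher in M-MyoF with few exceptions. In the smooth muscle contractile list all 25 genes passed higher in M-MyoF, 21 at 2-fold, with a median of -2.19. Of all genes 66.0% passed higher in M-MyoF, and 8.82% did at 2-fold. After median-ratio scaling 24 of 25 contractile genes passed. Their 2-fold count was 19 with equal sums, 18 with median-ratio and 17 with quantile scaling. Actg2, enteric smooth muscle actin, read 11.2, 9.84 and 10.3 FPKM in M-MF and 280.4, 281 and 283 FPKM in M-MyoF (-4.63 ± 0.0656), and Cnn1, calponin, read 4.94, 4.42 and 5.74 FPKM in M-MF and 118, 114 and 121 FPKM in M-MyoF (-4.30 ± 0.0599). Of 18 myofibroblast and ductal genes 17 were higher in M-MyoF at 2-fold (15 after median-ratio or quantile scaling). After Hhip and Lgr6 they were led by the cadherin Cdh4 (-3.17 ± 0.0394) and Bmp5 (8.85 against 78.4 FPKM, -3.01 ± 0.0287). Igf1, insulin-like growth factor, was higher in M-MF (57.2 against 16.1 FPKM, 1.77 ± 0.0302). Of 15 pericyte genes 13 were higher in M-MyoF at 2-fold (11 under each of the 3 rescalings), with a median of -3.11. Cox4i2, a hypoxia-linked cytochrome oxidase subunit, read 6.37, 7.19 and 6.67 FPKM in M-MF and 284, 270.0 and 259 FPKM in M-MyoF (-5.14 ± 0.057), and Pdzd2 stood at -3.79 ± 0.027 and Trpc6, a calcium channel, at -3.76 ± 0.0487. Postn, periostin, was the exception (456 against 295 FPKM, 0.63 ± 0.0195).

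**Figure D3:**
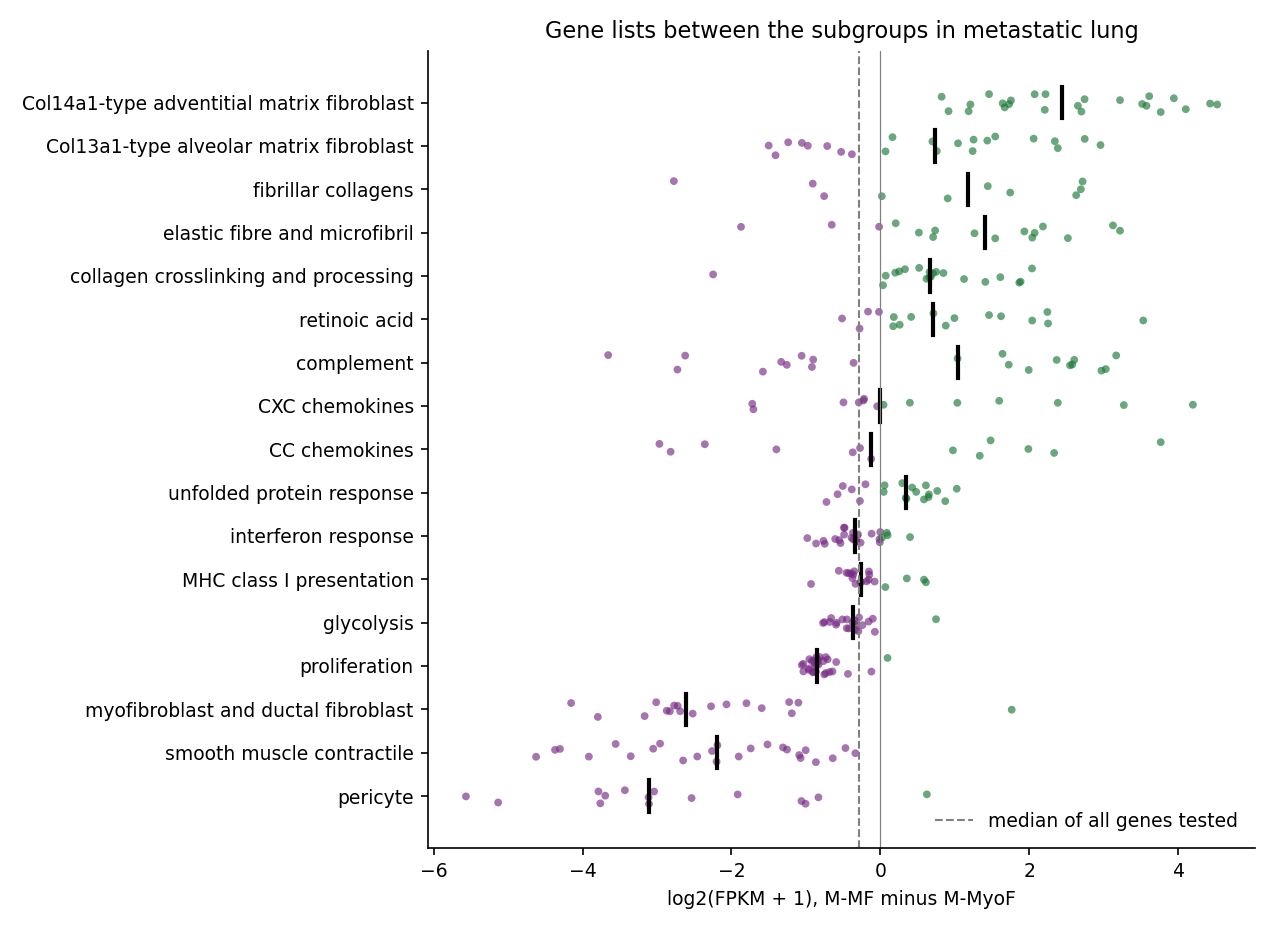
Difference in log2(FPKM + 1), M-MF minus M-MyoF (x axis), of each tested member of 17 gene lists, green above and purple below 0; black bars are list medians and the dashed line is the median of all 13300 genes, -0.29. The adventitial list has its median at 2.44 and the pericyte list at -3.11.

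Genes of muscle contraction are classically controlled by serum response factor through the CArG box. That motif was searched in the 250 bases before the start site in RefSeq promoters of GRCm38.p6, a window that 10564 of the tested genes had in the table. It reads the same on both strands. It was present for 1.41% of the tested genes with a window, 1.06% (5 of 470) of those higher in M-MF at 2-fold and 3.64% (32 of 878) of those higher in M-MyoF at 2-fold. The 6 of these 32 genes with the largest difference are shown. Actin and myosin genes make up most of these 6 but not of the 32, which also hold Lef1, Igf2 and Ager. Each line gives 60 bases, 5′ to 3′ on the gene's strand, with the box in capitals.
Acta1 (chr8:123894814-123894873, minus strand): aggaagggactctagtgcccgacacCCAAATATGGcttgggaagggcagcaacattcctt
Actc1 (chr2:114052888-114052947, minus strand): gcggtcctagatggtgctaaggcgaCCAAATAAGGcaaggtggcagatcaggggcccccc
Myl7 (chr11:5898809-5898868, minus strand): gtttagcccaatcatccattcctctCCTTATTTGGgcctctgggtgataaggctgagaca
Trpc6 (chr9:8543995-8544054, plus strand): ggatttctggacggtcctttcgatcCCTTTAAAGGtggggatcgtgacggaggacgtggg
Myl9 (chr2:156775278-156775337, plus strand): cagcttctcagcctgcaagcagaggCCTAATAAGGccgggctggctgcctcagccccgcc
Asb2 (chr12:103356031-103356090, minus strand): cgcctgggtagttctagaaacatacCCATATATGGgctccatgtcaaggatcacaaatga
The first base of the box lies 47 bases before the start in Actc1, cardiac actin, and 161 in Myl9, the regulatory light chain of smooth muscle myosin. Myl9 and Asb2, a ubiquitin ligase subunit (0.51 against 13.3 FPKM), are named for their box alone. Myl9 read 67.5, 66.6 and 65 FPKM in M-MF and 689.9, 708 and 665 FPKM in M-MyoF (-3.35 ± 0.0267), and Actc1 read 0.91, 0.68 and 1.29 FPKM in M-MF and 31.6, 34 and 32.1 FPKM in M-MyoF (-4.11 ± 0.0935). Actc1, Acta1 and Myl7, the atrial light chain (1.06 against 29.9 FPKM), belong to striated muscle. In the atrial and pulmonary vein muscle list 13 of 13 tested genes passed higher in M-MyoF, where 66.0% of all tested genes did. This list summed to 19.7 to 21.8 FPKM in M-MF and 207 to 213 in M-MyoF. Among the smooth muscle list, 1 of 20 genes with a window, Myl9, held this exact motif. The counts were 0 of 13 in the myofibroblast and ductal list, 1 of 11 in the pericyte list and 0 of 14 in the adventitial list. A match is a description of sequence, and binding was not measured.

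Regulators of lung mesenchyme were divided between the subgroups. Tbx4, the T-box factor of lung mesenchyme, read 10.3, 9.77 and 10.1 FPKM in M-MF and 117, 119 and 117 FPKM in M-MyoF (-3.43 ± 0.0269), and its relatives Tbx2 (-2.99 ± 0.0363) and Tbx5 (-2.52 ± 0.0343) were also higher in M-MyoF. Osr1, a zinc finger factor of early mesoderm, read 192, 193 and 193 FPKM in M-MF and 22.3, 22.3 and 22.3 FPKM in M-MyoF (3.06 ± 0.0209). The fibroblast factors Ebf1 (1.56 ± 0.0423), Prrx1 (1.53 ± 0.0348) and Twist2 (1.32 ± 0.0873) were higher in M-MF as well. In all, 4 of 25 regulators were higher in M-MF at 2-fold and 6 higher in M-MyoF, where 4.74% and 8.82% of all genes were.

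Most interstitial matrix was more abundant in M-MF. Col1a1, Col1a2 and Col3a1, the chains of the main fibrillar collagens, stood at 2478 against 399 FPKM, 1704 against 262 FPKM and 4306 against 653 FPKM (M-MF against M-MyoF). Col3a1 read 4303, 4349.9 and 4265 FPKM in M-MF and 653, 659 and 648 FPKM in M-MyoF (2.72 ± 0.0139). Of 10 tested fibrillar chains 5 were higher in M-MF at 2-fold, where 4.74% of all genes were. Col2a1, the cartilage chain, was higher in M-MyoF (0.0133 against 5.93 FPKM, -2.77 ± 0.0348). Dcn, decorin, which binds collagen fibrils, read 5929, 5911 and 6028 FPKM in M-MF and 497, 493 and 504 FPKM in M-MyoF (3.58 ± 0.0126). Among small leucine-rich proteoglycans Epyc, epiphycan (3.63 ± 0.0826), and Podn, podocan (2.74 ± 0.0408), were also higher in M-MF, whereas Aspn, Chad (-2.62 ± 0.0345), Podnl1 (-1.22 ± 0.0636) and Prelp (-0.83 ± 0.019) were higher in M-MyoF. In the elastic fibre list 9 of 16 genes were higher in M-MF at 2-fold (median 1.41), such as the microfibril protein Mfap5 (711 against 75.3 FPKM, 3.22 ± 0.0256) and the fibulins Efemp1 (3.13 ± 0.0185), Fbln5 (2.52 ± 0.0202) and Fbln2 (2.19 ± 0.0292). Ltbp2, a latent TGF-beta binding protein family member, was higher in M-MyoF (-1.87 ± 0.0351).

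Enzymes that process and crosslink collagen were higher in M-MF in 18 of 20 cases, 6 at 2-fold (median 0.67), where 19.1% and 4.74% of all genes were. Lox, lysyl oxidase, read 169.9, 163 and 165 FPKM in M-MF and 40.6, 38.5 and 39.7 FPKM in M-MyoF (2.04 ± 0.0277), and Loxl1 (1.89 ± 0.0194) and the procollagen peptidase Adamts2 (1.87 ± 0.0404) followed, while the prolyl hydroxylase subunit P4ha3 was higher in M-MyoF (-2.25 ± 0.0516). Of 17 tested fibril-associated and other collagens 8 passed higher in M-MF, 6 at 2-fold, and 7 in M-MyoF, 2 at 2-fold (median 0.007). Of all genes 66.0% passed higher in M-MyoF, and 8.82% did at 2-fold. Col6a5 and Col6a6, collagen VI chains, had the largest differences of these. They averaged 134 against 13 FPKM and 32.7 against 3.8 FPKM in the metastatic lung. Col12a1 (-1.44) and Col9a3 (-1.09) were higher in M-MyoF. In the basement membrane list 10 of 18 genes were higher in M-MF and 8 in M-MyoF, where 19.1% and 66.0% of all genes were. Nid1, nidogen, was at 2.56 ± 0.0252 and Lama2, the laminin chain of muscle and mesenchyme, at 1.46 ± 0.0255, while Lama5 was at -1.34 ± 0.043. Matricellular proteins divided: Fn1, fibronectin (454 against 69 FPKM, 2.70 ± 0.022), and Thbs4, thrombospondin 4 (2.58 ± 0.0506), were higher in M-MF. Tgfbi, a TGF-beta-induced adhesion protein (39.4 against 328 FPKM, -3.03 ± 0.0299), Thbs1, thrombospondin 1 (124 against 731 FPKM, -2.55 ± 0.0199), and Tnc, tenascin C (-1.59 ± 0.0331), were higher in M-MyoF. Spp1, osteopontin, also stood higher in M-MyoF (561 against 829.9 FPKM, -0.56 ± 0.0798). Of the metalloproteases, Mmp8 (-4.32 ± 0.0546) and Mmp9 (-3.43 ± 0.043), which neutrophils carry in granules, and the antiangiogenic Adamts8 (-3.42 ± 0.0302) were higher in M-MyoF and Mmp19 (2.48 ± 0.0408) in M-MF. Of 16 genes of cancer-associated fibroblast activation, 4 were higher in M-MF at 2-fold, namely the protease Fap (20 against 1.73 FPKM, 2.94 ± 0.0578), podoplanin, Pdpn (2.50 ± 0.0344), Cthrc1 (2.49 ± 0.0803) and Thy1 (1.99 ± 0.0488) (Pdpn also marks alveolar type 1 and mesothelial cells), and 3 in M-MyoF, among them Lrrc15 (0.173 against 5.17 FPKM, -2.39 ± 0.0491). After median-ratio scaling these counts were 6 and 2.

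The chemokines highest in M-MF attract lymphocytes, eosinophils and monocytes. Cxcl13, which attracts B cells, read 940.3, 923 and 926 FPKM in M-MF and 49.2, 49.5 and 50.2 FPKM in M-MyoF (4.20 ± 0.023, 18.4-fold). Cxcl12, the ligand of Cxcr4, read 734, 738 and 745 FPKM in M-MF and 75.7, 74.6 and 76.3 FPKM in M-MyoF (3.27 ± 0.0188). Ccl11, eotaxin, read 667, 685 and 681 FPKM in M-MF and 47.6, 49.8 and 49 FPKM in M-MyoF (3.77 ± 0.0284). Ccl2, a monocyte attractant named here after its values were seen, averaged 1045 against 206 FPKM. Each of these was higher in every M-MF library. In the other direction, Ccl6 (-2.97 ± 0.0509), Ccl3 (6.65 against 50.2 FPKM, -2.82 ± 0.242) and Ccl4 (-2.36 ± 0.408), chemokines made by myeloid cells, were higher in M-MyoF beside the neutrophil marker sums given above, as were Cxcl17 (-1.72 ± 0.136) and Cxcl15 (-1.71 ± 0.037), chemokines of airway epithelium, beside the epithelial sums. Of 27 tested chemokines of both families, 10 were higher in M-MF at 2-fold and 6 in M-MyoF, where 4.74% and 8.82% of all genes were.

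Complement genes were divided between the subgroups. C7, of the membrane attack complex, read 91.3, 92.6 and 92.7 FPKM in M-MF and 10.6, 10.7 and 9.87 FPKM in M-MyoF (3.03 ± 0.0383), and Cfb, factor B (505 against 63.4 FPKM, 2.97 ± 0.0214), was likewise higher in M-MF. C3, the central component, named here after its values were seen, averaged 2609 against 444 FPKM. The receptor C5ar1 (-3.66 ± 0.0634), properdin, Cfp (-2.73 ± 0.0486), adipsin, Cfd (-2.62 ± 0.0649), and C1qa (-1.58 ± 0.179) were higher in M-MyoF; C5ar1 and Cfp are genes of myeloid cells. In all 11 of 21 complement genes were higher in M-MF at 2-fold and 7 in M-MyoF, where 4.74% and 8.82% of all genes were as deposited. After quantile scaling the complement counts were 11 and 4. Of 24 cytokines and acute phase proteins, 4 were higher in M-MF at 2-fold and 8 in M-MyoF as deposited, but 5 and 6 with equal sums, 6 and 6 with median-ratio and 5 and 5 with quantile scaling. Saa3, the acute phase serum amyloid of fibroblasts and macrophages, read 3551, 3622 and 3555 FPKM in M-MF and 476, 472 and 466 FPKM in M-MyoF (2.92 ± 0.109), and the alarmin Il33 read 194, 187 and 189.8 FPKM in M-MF and 27.4, 27.4 and 27.7 FPKM in M-MyoF (2.75 ± 0.0388). Il6 (70.8 against 34.4 FPKM, 1.02 ± 0.0335) and Csf1, macrophage colony-stimulating factor (86.3 against 38.8 FPKM, 1.14 ± 0.0284), were about 2-fold higher in M-MF. Il1b (4.34 against 71.7 FPKM, -3.77 ± 0.0547) and Osm, oncostatin M (-2.89 ± 0.0743), both myeloid cytokines, were higher in M-MyoF.

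**Figure D4:**
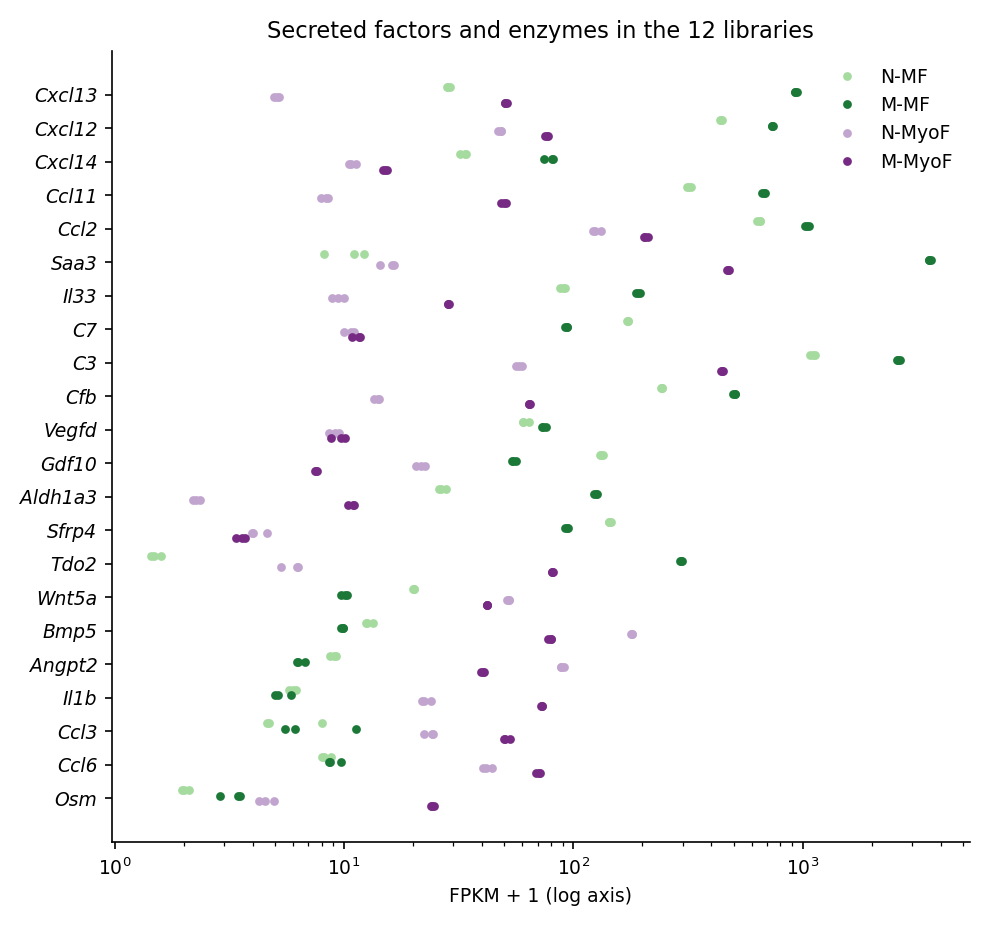
FPKM + 1 (x axis, log scale) of 22 secreted factors and enzymes, 1 point per library, 3 libraries in each of the 4 groups. Cxcl13 sits near 930 FPKM in M-MF, 49.6 in M-MyoF, 27.6 in N-MF and 4.10 in N-MyoF.

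Developmental signals had members on both sides. Among 30 tested Wnt genes 9 were higher in each subgroup at 2-fold as deposited, but 9 in M-MF and 5 in M-MyoF after median-ratio or quantile scaling. Of all genes as deposited, 4.74% were higher in M-MF at 2-fold and 8.82% in M-MyoF. The secreted antagonists Sfrp4 and Frzb (17.7 against 1.27 FPKM, 3.05 ± 0.0594) were higher in M-MF, and the receptor Lgr6 and the nuclear effector Lef1 (0.307 against 7.95 FPKM, -2.78 ± 0.048) in M-MyoF. The antagonist Wif1, named here after its values were seen, was higher in M-MyoF (14.9 against 104 FPKM, -2.72 ± 0.0356). In the TGF-beta and BMP list Gdf10 (54 against 6.55 FPKM, 2.87 ± 0.0324), the receptor Tgfbr2 (142 against 47.2 FPKM, 1.56 ± 0.0175) and the antagonists Chrdl1 (1.53 ± 0.043) and Chrd (1.27 ± 0.0323) were higher in M-MF, while Bmp5 was higher in M-MyoF. Of the hedgehog genes, the coreceptors Gas1 (1.38 ± 0.0736) and Cdon (1.33 ± 0.0543) were higher in M-MF, opposite to Hhip. Of 17 retinoic acid genes 6 were higher in M-MF at 2-fold and 0 in M-MyoF (median 0.71). Aldh1a3 and Aldh1a2, which make retinoic acid, averaged 124 against 9.83 FPKM and 148 against 35.3 FPKM, and Dhrs3, a retinal reductase, stood at 2.26 ± 0.037. Among growth factors Angptl7 (2.52 ± 0.036) joined Vegfd in M-MF, and Angpt2, an angiopoietin that destabilises vessels, was higher in M-MyoF (5.44 against 39.1 FPKM, -2.64 ± 0.0344).

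Tdo2, tryptophan dioxygenase, the first enzyme of tryptophan breakdown to kynurenine and the gene in the series title (chromosome 3, 81958412 to 81975728), read 295, 298 and 291 FPKM in M-MF and 80.1, 80.9 and 79.8 FPKM in M-MyoF. All 3 M-MF libraries lay above the M-MyoF libraries (3.63-fold; 1.86 ± 0.0561, adjusted p = 5.63e-12), although M-MyoF libraries were also well above the 0.507 against 4.95 FPKM of N-MF against N-MyoF. In the list of kynurenine and aryl hydrocarbon receptor genes, 9 of 15 passed higher in M-MyoF and 5 in M-MF as deposited (median -0.12). These counts were 5 and 7 after median-ratio scaling. At 2-fold, where 4.74% of all genes were higher in M-MF and 8.82% in M-MyoF, 4 were higher in M-MF and 0 in M-MyoF. Besides Tdo2 they were Cyp1b1, a receptor target (129 against 19.7 FPKM, 2.65 ± 0.0291), Slc7a8, an amino acid carrier (22.2 against 3.31 FPKM, 2.43 ± 0.049), and Qprt, which leads quinolinate to NAD (3.62 against 0.323 FPKM, 1.81 ± 0.0734). Of 19 ferroptosis defence genes 1 reached 2-fold, Hmox1, haem oxygenase (87.6 against 42.1 FPKM, 1.04 ± 0.0336), a share near the 4.74% of all genes higher in M-MF. The cystine importer Slc7a11 averaged 1.16 against 2.55 FPKM (-0.72 ± 0.0431), Nqo1 7.11 against 13.9 FPKM (-0.87 ± 0.073) and the ferritin heavy chain Fth1 7861 against 5993 FPKM (0.39 ± 0.0278). Of 12 genes that promote ferroptosis Steap3, an iron reductase (159 against 24.5 FPKM, 2.65 ± 0.0239), was higher in M-MF at 2-fold, and Alox5, a leukocyte lipoxygenase (0.297 against 9.45 FPKM, -3.01 ± 0.0605), and Tfrc, the transferrin receptor (2.5 against 6.79 FPKM, -1.16 ± 0.0486), in M-MyoF beside the neutrophil and globin values above. The count higher in M-MyoF was 1 after median-ratio or quantile scaling. Of 14 T cell inhibitory ligands and enzymes Fgl2 was higher in M-MF at 2-fold (39.6 against 7.77 FPKM, 2.21 ± 0.0464) and Arg1 (-1.26 ± 0.0618), Nt5e (-1.11 ± 0.0438) and Nos2 (-1.04 ± 0.0695) in M-MyoF. These counts of 1 and 3 became 2 and 2 with equal sums, 2 and 1 with median-ratio and 2 and 0 with quantile scaling.

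Several large programmes differed little beyond the shift of all genes. None of 26 interferon response genes and none of 20 MHC class I genes reached 2-fold, with medians of -0.34 and -0.26 beside -0.29 for all genes. Psmb8, an immunoproteasome subunit, was at 254 against 374 FPKM and the guanylate-binding protein Gbp4 at 31.9 against 54.8 FPKM. Glycolysis (median -0.37 over 21 genes), oxidative phosphorylation (-0.29 over 22) and ribosomal protein genes (-0.19 over 32) had no 2-fold calls. Ribosomal genes passed higher in M-MyoF in 25 cases and in M-MF in 3 as deposited. These counts were 18 and 8 with equal sums, 24 and 6 with quantile and 3 and 18 with median-ratio scaling. MHC class I genes passed in 15 and 3 cases as deposited, 11 and 5 with equal sums or quantile scaling and 8 and 9 with median-ratio scaling. The deposited direction was thus kept under equal sums and quantile scaling, while median-ratio scaling reversed it for ribosomal genes and left MHC class I genes nearly even. Proliferation genes stood further from the median, with 28 of 30 higher in M-MyoF as deposited and under each rescaling and a median of -0.85. Of all 13300 genes 66.0% passed higher in M-MyoF as deposited, and 5362 genes did after quantile normalization. Mki67 read 2.78, 2.72 and 2.63 FPKM in M-MF and 6.68, 6.36 and 6.77 FPKM in M-MyoF (-1.04 ± 0.0413), Cdc20 averaged 41.6 against 87.4 FPKM (-1.05 ± 0.0601) and Ube2c 77.9 against 160.4 FPKM (-1.03 ± 0.0755). Their 3 calls at 2-fold were not kept under equal sums, median-ratio or quantile scaling. Of 20 genes of the unfolded protein response 14 were higher in M-MF, where 19.1% of all genes were, and 6 in M-MyoF. Those higher in M-MF included Pdia4 (0.87 ± 0.0181), Pdia6 (0.77 ± 0.0173) and Sdf2l1 (1.03 ± 0.0453), chaperones of the secretory pathway. Atf4, a stress regulator, was higher in M-MyoF (-0.72 ± 0.0168). Of 22 immediate early genes, which respond to stimuli and to tissue dissociation, 2 were higher in M-MyoF at 2-fold, Nr4a2 (-1.73 ± 0.0219) and Btg2 (-1.32 ± 0.0128), a share near the 8.82% of all genes.

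The same contrast in normal lung, which shares no library with the one above, gave 649 genes (4.88%) higher in N-MF and 1583 (11.9%) higher in N-MyoF at 2-fold, 16.8% in all. Of the 1804 genes called in metastatic lung 1223 were called in the same direction in normal lung, which is 67.8% of the metastatic and 54.8% of the normal calls. Across the 13300 genes the 2 sets of log2 differences had a Pearson correlation of 0.746 and a Spearman correlation of 0.70, as a description over genes, which are not independent replicates and share one table and scaling. Acta2 differed by -4.65 in normal and -3.56 in metastatic lung, Hhip by -5.02 and -4.16, Pi16 by 5.61 and 4.53, and Pdgfra by 3.12 and 2.81. Dcn differed by 3.62 and 3.58. Mrgprg went from 4.08 to 6.24 and Cxcl13 from 2.49 to 4.20.

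A test of the difference between the 2 contrasts called 944 genes (7.10%) at 2-fold, 509 (3.83%) with a higher value of MF relative to MyoF in metastatic lung and 435 (3.27%) with a lower one. The subgroup difference was closer to 0 in metastatic lung for part of the identity lists: 9 of 24 adventitial genes had a lower value and 1 a higher one at 2-fold, and 6 of 18 myofibroblast genes had a higher value and 0 a lower one. None of 15 pericyte genes reached 2-fold in this test. A called gene had opposite directions at 2-fold in the 2 settings in 25 cases. Tdo2 was among them, from 0.507 against 4.95 FPKM in normal lung to 294 against 80.3 FPKM in metastatic lung (difference 3.84 ± 0.0794, adjusted p = 1.02e-12). Car4 went from 17.8 against 65.5 FPKM to 702 against 111 FPKM (4.47 ± 0.037), and Trf, the iron carrier transferrin, named here after its values were seen, from 22.2 against 51.4 FPKM to 569 against 125 FPKM. Fgf1 went from 6.83 against 16.6 FPKM to 17.7 against 7.81 FPKM and the activin antagonist Fst from 10.4 against 3.71 FPKM to 8.54 against 20.4 FPKM, both also named after their values were seen. Lists of other cells moved with this test too. A higher value in metastatic lung at 2-fold was called for 14 of 15 cartilage genes, 9 of 13 mesothelial genes, 8 of 9 nerve and Schwann cell genes and 7 of 13 atrial muscle genes, and a lower one for 18 of 22 neutrophil genes and 5 of 7 mast cell and basophil genes. Cartilage markers summed to 774 to 794 FPKM in N-MyoF, 89.7 to 90.9 in M-MyoF, 102 to 105 in N-MF and 57.3 to 58.6 in M-MF.

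**Figure D5:**
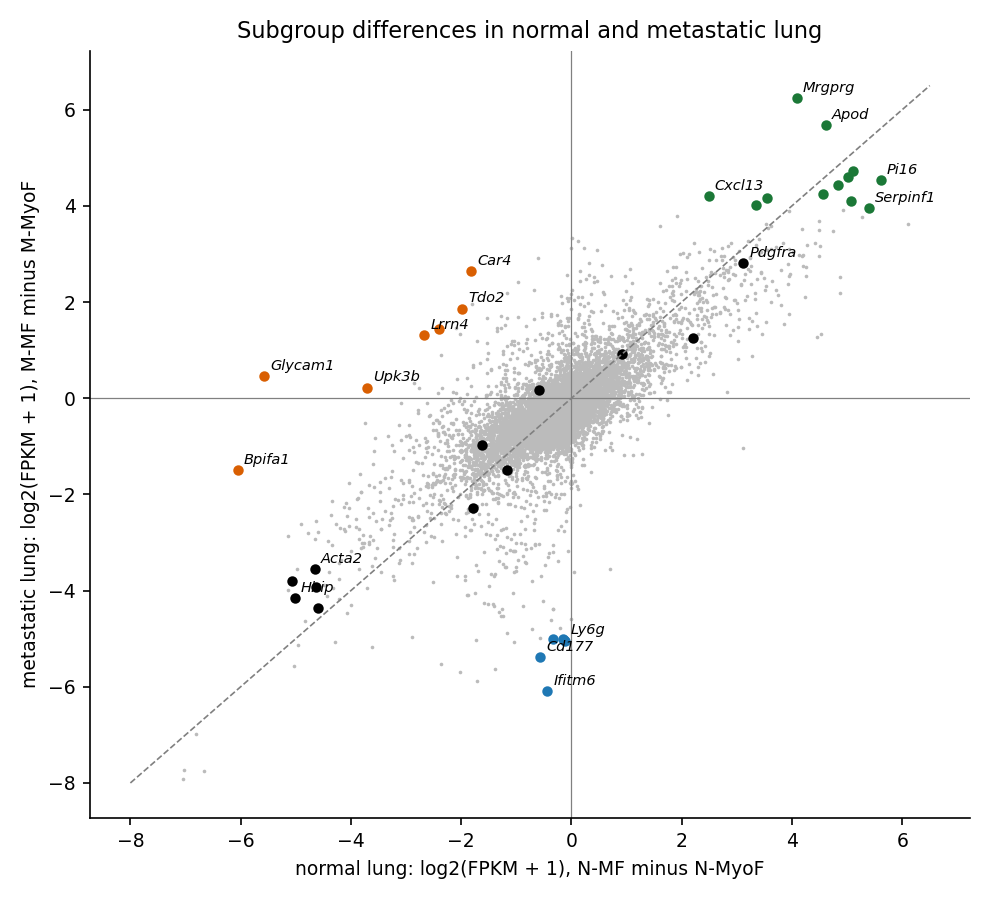
Difference in log2(FPKM + 1) between the subgroups in normal lung (x axis) and in metastatic lung (y axis), 1 point per gene for 13300 genes; the dashed line marks equal differences, black points are subgroup markers, orange and blue points the genes with the largest change between the settings, and green points those highest in M-MF. Tdo2 lies at -1.98 on the x axis and 1.86 on the y axis.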

How the data were processed

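RNA of mouse lung fibroblast subgroups was measured in 12 libraries, 3 in each of 4 groups taken from the sample titles. Per the labels' protocols, polyA RNA was extracted with Trizol, amplified as cDNA by the SMART-seq2 method and made into libraries with a transposon. Per the file headers the authors deposited FPKM, given to 2 decimals. Per the submitters' processing notes the build was GRCm38, and the aligner, counting tool and annotation were not given in the sources used here. Strand was not stated, so overlapping and antisense genes cannot be told apart.

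Here log2(FPKM + 1) was fitted with limma 3.58.1 in R 4.3.3, with 1 mean per group over all 12 libraries, 8 residual degrees of freedom and a mean-variance trend. The 13300 of 20606 genes that reached 1 FPKM in 3 or more libraries entered, and Benjamini-Hochberg adjustment ran over all of these. Fold changes on this scale understate those of low genes. Depth is unknown, so the number and spread of libraries limit precision. Tables and figures used Python 3.11.15, pandas 2.3.3, numpy 2.4.6 and matplotlib 3.10.9. The fit was tested on simulated data. The table's 2 symbols that stand on 2 rows were kept apart, and positions came from RefSeq for 20548 genes.

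The comparison, the 54 gene lists (1020 of 1027 entries matched, 2 by an older symbol) and the rules were chosen with earlier results of these data known. No list was tested as a set. A few genes that the naming rule covers are not reported here. Named genes are, per direction, the 12 with the largest difference among called genes whose libraries did not overlap and whose higher group averaged at least 5 FPKM, leaving out unnamed gene models. For the difference between metastatic and normal lung they are the 6 largest per direction, by the same rule without the overlap condition. Also named are up to 4 members of each list with the largest difference past the threshold, up to 4 against its majority, 12 subgroup markers, Tdo2, and the 6 genes with the smallest difference at 100 FPKM or more.

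The labels do not say what the numbers 1 to 3 mark. Deviations from group means over 1830 genes at 50 FPKM or more correlated at 0.482 to 0.796 between same-numbered libraries of different groups (18 pairs) and at -0.683 to 0.38 between others (36 pairs), so the numbers were taken to pair the libraries and a fit with the number as a block was run. Alternatives covered pseudocounts, filters, scalings, the groups in the fit, the variance trend, the block, thresholds and each library left out.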

Additional observations from a re-analysis of the deposited data

Results flagged for a closer look

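The difference between the subgroups was tested for a change between normal and metastatic lung, and 944 genes changed at 2-fold or more (limma adjusted p under 0.05). The genes with the largest changes are given with the fitted change in log2(FPKM + 1), metastatic minus normal lung.

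Where M-MF gained on M-MyoF, Glycam1, a mucin-like ligand of lymph node venules, changed by 6.04 ± 0.0745. It averaged 46.5 FPKM in N-MyoF, was listed at 0 in the N-MF and M-MyoF libraries and averaged 0.383 in M-MF, so the change rests on N-MyoF. Bpifa1, a secreted airway protein, changed by 4.56 ± 0.0817, from 0.54 against 101 FPKM (MF against MyoF) in normal lung to 13.9 against 40.8 FPKM. Car4 changed by 4.47 ± 0.037, and its level in M-MF exceeded those of all 3 other groups. The mesothelial genes Lrrn4 (3.98 ± 0.0644, from 0.4 against 7.91 FPKM to 59 against 23.2 FPKM) and Upk3b (3.92 ± 0.0971, from 1.42 against 30.3 FPKM to 44.2 against 37.9 FPKM) also changed. Chil3, a chitinase-like protein of macrophages and neutrophils with close copies, changed by 3.85 ± 0.0725, from 8.01 against 46.7 FPKM to 465 against 171 FPKM. Tdo2 changed by 3.84 ± 0.0794.

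Where M-MyoF gained on M-MF, the 6 largest changes were in neutrophil genes. Ifitm6 changed by -5.66 ± 0.192, Stfa2, a stefin, by -4.93 ± 0.166, the Gr-1 antigen gene Ly6g by -4.89 ± 0.111, the stefin-like Cstdc5 by -4.84 ± 0.216 and Cstdc4 by -4.68 ± 0.137, and Cd177 by -4.81 ± 0.0534. Ly6g averaged 0.1 against 0.213 FPKM in normal and 0.393 against 44.2 FPKM in metastatic lung. The stefin family holds near-identical copies, so how reads divide among its members is uncertain.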

How the results depend on the processing

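The counts depended on the pseudocount and the scaling. With a pseudocount of 0.1, 2768 genes differed at 2-fold between M-MF and M-MyoF, 1946 of them higher in M-MyoF, and 1448 changed between the settings. With a pseudocount of 5 the counts were 861 (375 and 486), 456 between the settings and 1107 in normal lung. At 4-fold they were 523 (212 and 311), 215 and 585. With no minimum fold, 4440 genes were higher in M-MF after median-ratio scaling, and 4803 in M-MF and 5362 in M-MyoF after quantile normalization, which also gave 698 at 2-fold higher in M-MyoF. The share of 2-fold calls higher in M-MF was 35% as deposited, 41.1% with equal sums, 50.9% and 56%. The cause was not tested, except that the pseudocount acts on low genes by construction. The other settings, among them the replicate block, each library left out and all 4 libraries numbered 3 left out (chosen after seeing the data), moved no count by over 1.5 times. The replicate block gave 1805 genes at 2-fold (631 and 1174), 946 between the settings and 2234 in normal lung, and ended no call of a named gene. Of 7905 recomputed values of named genes 3 reversed: Rxra had 0.0566 after median-ratio scaling and 0.174 after quantile normalization, and Stra6 0.0815 after quantile normalization, against -0.164 and -0.278 as deposited. FPKM carry no depth, so differences of genes near 1 FPKM are the least certain.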
